A study of Mus musculus with 6 samples.

Results

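The 10 genes described here are the transcriptional coactivators Yap1 (YAP) and Wwtr1 (TAZ), the DNA-binding factors Tead1, Tead2, Tead3 and Tead4, and the target genes Cyr61, Ctgf, Ankrd1 and F3. They were taken by name from the 54838 gene IDs of each count table; Cyr61 and Ctgf are annotated there as Ccn1 and Ccn2. All 10 were matched, and 9 passed the filter on low counts together with 15998 genes in all; Ankrd1 did not. The IDs are ENSMUSG00000053110 (Yap1), ENSMUSG00000027803 (Wwtr1), ENSMUSG00000055320, ENSMUSG00000030796, ENSMUSG00000002249 and ENSMUSG00000030353 (Tead1 to Tead4), ENSMUSG00000028195 (Cyr61), ENSMUSG00000019997 (Ctgf), ENSMUSG00000024803 (Ankrd1) and ENSMUSG00000028128 (F3).

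RNA was measured by paired-end sequencing in 6 libraries of mouse intestinal stem cells: 3 of cells treated with INT-777, a synthetic bile acid derivative that activates the receptor TGR5, at 30 µM, and 3 of cells given its solvent DMSO. All cells came from the strain labelled B6.129P2-Lgr5tm1(cre/ERT2)Cle/J, in which green fluorescent protein and an inducible Cre recombinase are expressed from Lgr5, the gene of a surface receptor of crypt-base stem cells, and the age of the mice is not stated. On each of 3 days, bright cells were sorted from the pooled intestines of 4 mice and embedded in Matrigel, and cultures were treated from 4 h later, for 12 h according to the sample labels and 16 h according to the design text. Both groups also received CHIR99021, which inhibits GSK3, at 3 µM and a Notch-activating peptide, JAG-1, at 1 µM, and the replicate number is the day of the sort.

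YAP and TAZ do not bind DNA themselves. When the Hippo kinases are inactive they enter the nucleus and switch on genes through TEAD factors, and when the kinases LATS1 and LATS2 phosphorylate them they are held in the cytoplasm or degraded. In the intestine this pathway is known for its part in crypt repair after injury. The comparison of INT-777 with DMSO addresses the YAP route proposed for TGR5. Phosphorylation and localisation of the proteins are not measured by RNA counts.

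The libraries held 45682340 to 47905087 read pairs assigned to genes. Levels are counts per 1000000 assigned pairs (CPM), scaled by the TMM method. Gpbar1, the gene of TGR5, was near the limit of detection, with 4, 1 and 4 pairs in INT-777 cells on days 1, 2 and 3, against 4, 0 and 5 pairs in DMSO cells. Day 3 stood apart from the other days: the summed level of 9 goblet cell markers was 3002, 2902 and 12451 CPM in the INT-777 libraries of days 1, 2 and 3, and 5663, 5566 and 28236 CPM in the DMSO libraries. The RNA integrity number on day 3 was 9 with INT-777 and 8.7 with DMSO, the lowest value of each group. Of 4 stem cell markers, Lgr5 had 67.2, 64.6 and 53.7 CPM with INT-777 and 72.3, 74.5 and 62.2 CPM with DMSO on days 1, 2 and 3, and Ascl2, Olfm4 and Smoc2 were present in every library. Smoc2 fell, to 165 ± 3.19 CPM with INT-777 against 226 ± 10.9 CPM with DMSO (log2 −0.45 ± 0.05, edgeR adjusted p = 0.0141). Lgr5 and Olfm4 were also lower with INT-777 on each day, by log2 changes of −0.17 ± 0.10 and −0.66 ± 0.22 that passed with the day block only, and Ascl2 was higher on each day and called with the block only. Among 5 epithelial markers the keratin gene Krt8 was the most abundant (log2 0.27 ± 0.06, edgeR adjusted p = 0.105). The part of these marker differences in the results below was not tested.

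The sequences upstream of the target genes are shown first because these genes are the readout of the pathway. RefSeq promoter windows (build GRCm38.p6) were given for 7 of the 10 genes, in 10 windows, and the 250 bases before each start were searched on both strands for the TEAD motif GGAATG, the AP-1 motif TGANTCA, the EGR motif GCGGGGGCG and the CArG box bound by SRF. Of the 32851 mouse windows in the table, 12.6% held the TEAD motif, 6.75% the AP-1 motif, 2.57% the EGR motif and 1.47% the CArG box; no match overlapped another. Cyr61 held a TEAD match that began 103 bases before its start, on the reverse strand. F3 held no match to GGAATG, and a pair of AP-1 matches that began 146 and 135 bases before its start. Neither window held the EGR motif or the CArG box. Both upstream stretches are given 5′ to 3′ in the direction of the gene, with matches in capitals; that of F3 lies on the plus strand at chr3:121723287-121723536 and runs into an exon of Gm43823, a gene annotated on the other strand, and that of Cyr61 lies on the minus strand at chr3:145649986-145650235.
F3: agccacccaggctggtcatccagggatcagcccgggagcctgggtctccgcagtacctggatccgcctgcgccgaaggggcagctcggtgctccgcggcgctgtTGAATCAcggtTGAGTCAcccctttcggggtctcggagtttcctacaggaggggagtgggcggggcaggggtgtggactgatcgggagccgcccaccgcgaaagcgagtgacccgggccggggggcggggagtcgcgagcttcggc
Cyr61: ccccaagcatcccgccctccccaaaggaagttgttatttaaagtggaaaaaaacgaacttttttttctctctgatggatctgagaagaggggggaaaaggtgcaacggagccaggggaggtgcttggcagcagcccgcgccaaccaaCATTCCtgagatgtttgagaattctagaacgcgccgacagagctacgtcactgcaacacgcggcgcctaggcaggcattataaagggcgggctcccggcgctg

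The TEAD motif was found in windows of 5 of the 7 genes, namely Cyr61, Ankrd1, Yap1, Wwtr1 and Tead3. By window it was found in 7 of 10, against 12.6% of all windows, and both windows of Wwtr1 held the same match. No window was given for Ctgf, Tead1 and Tead4, so these genes were not searched. The matches of Ankrd1, Yap1 and Wwtr1 are given with 10 bases on each side, in the direction of the gene and with the motif in capitals, to set them beside that of Cyr61. They lie on the minus strand at chr19:36120039-36120064 and chr19:36119952-36119977 (Ankrd1), chr9:8004722-8004747 (Yap1) and chr3:57576031-57576056 (Wwtr1). Those of Ankrd1 lie within the annotated span of the gene, and the searched stretch overlaps an annotated exon of it. A match is a description of the letters and not evidence of a bound site.
Ankrd1, first match: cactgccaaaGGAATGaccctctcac
Ankrd1, second match: cactaagtctGGAATGaaaattcacc
Yap1: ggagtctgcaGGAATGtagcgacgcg
Wwtr1: taaactcaaaGGAATGcagataggcg

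In the fit that leaves the pairing by day unused, 2 of the 9 tested genes were called higher with INT-777 and none lower. The 2 were the target gene F3 and the factor gene Tead4 (edgeR quasi-likelihood test without the day as a block, Benjamini-Hochberg adjusted p under 0.05 over 15998 genes). None of the 9 was lower at an unadjusted p under 0.05 in edgeR, and DESeq2 called the same pair, with no lower call and 1 lower gene, Tead1, at an unadjusted p under 0.05. Before adjustment, in either direction, 2 of the 9 were below 0.05 in edgeR, against 2621 of 15998 genes. In DESeq2 4 of the 9 were, against 2425 genes. Of all tested genes, 0.688% were called higher, 0.763% lower and 1.45% in either direction. With the day as a block, which pairs the libraries of a day, Ctgf was called higher as well and Tead1 lower, 4 of 9 in all. That fit called 11.1% of all genes higher, 10.3% lower and 21.3% in either direction. The median log2 change of the 9 was 0.03, and that of all tested genes was 0.0031. Every INT-777 library was above every DMSO library for 2 of the 9 and below for 0, against 13.6 and 11% of all tested genes. The summed goblet marker level given above was lower with INT-777 on each day, and 8 of the 9 goblet markers were called lower with the day block and 0 without it (edgeR; 2, Ramp1 and Muc2, at an unadjusted p under 0.05, and 1 in DESeq2), and their part in the members' differences was not tested.

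The calls were repeated without each day, since day 3 stood apart. Without the block and without both libraries of day 3, Tead4, Ctgf and F3 were higher and Tead1 lower (edgeR), when 13.9% of all genes were called higher, 12.9% lower and 26.8% in either direction. Without day 1 no member was called, as was 0% of all genes. Without day 2 no member was called either, and 0.0123% of all genes were called higher, 0.00616% lower and 0.0185% in either direction. In the edgeR fits without day 1 and without day 2, 2 members each were below 0.05 before adjustment. Of all genes, 1189 of 16245 and 872 of 16224 were. DESeq2 was not run without a day. With the day block, Tead4, Ctgf and F3 were called higher whichever day was left out, against 10.4, 4.79 and 12.1% of all genes called higher without day 1, 2 and 3. Tead1 was called lower without day 1 and without day 3 and not without day 2, against 9.58, 7.17 and 12% of all genes called lower without day 1, 2 and 3. The blocked fits called 20, 12 and 24.1% of all genes in either direction without day 1, 2 and 3.

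**Figure D1:**
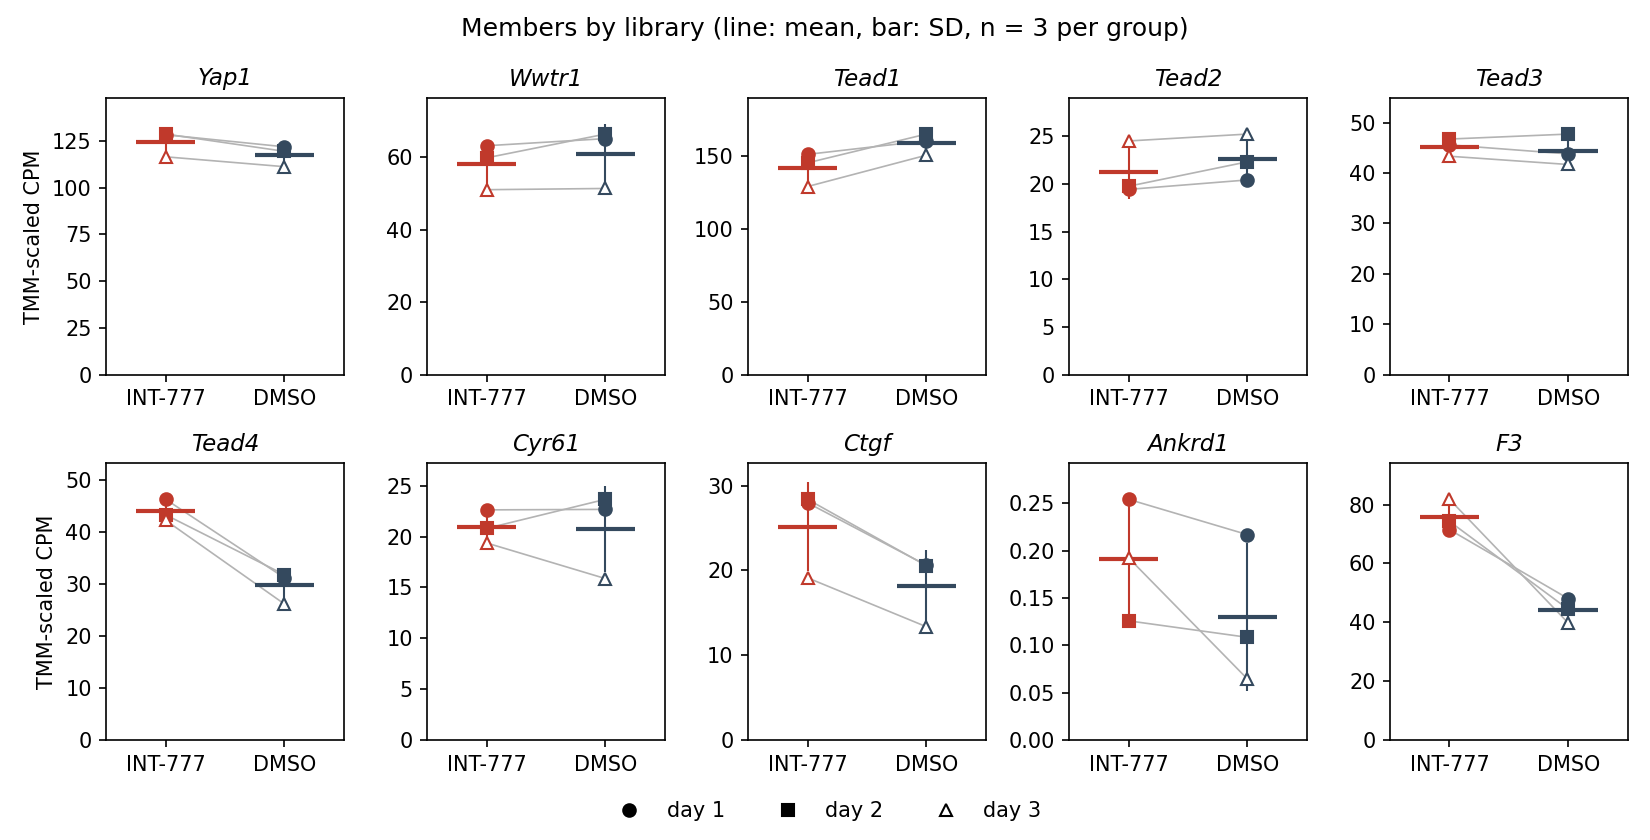
TMM-scaled CPM of each of the 10 genes by library, with INT-777 on the left and DMSO on the right of each panel; grey lines join the libraries of 1 day, horizontal lines are means and bars the SD (n = 3). The INT-777 and DMSO libraries of F3 and Tead4 do not overlap, and the day 3 libraries of Wwtr1, Cyr61 and Ctgf (open triangles) lie below those of days 1 and 2.

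F3 encodes tissue factor, the cell-surface starter of blood coagulation, and belongs to published YAP and TEAD target signatures. It lies on chromosome 3 at 121723537 to 121735048 (GRCm38, GENCODE M21, plus strand). F3 had 71.5, 74.3 and 81.8 CPM in the INT-777 libraries of days 1, 2 and 3, against 48.05, 44.4 and 39.8 CPM in the DMSO libraries. The groups did not overlap. The difference within a day was widest on day 3, where the INT-777 library was the highest of the 6 and the DMSO library the lowest: the log2 ratios were 0.57, 0.74 and 1.04 on days 1, 2 and 3. The mean was 75.9 ± 5.33 CPM with INT-777 and 44.1 ± 4.15 CPM with DMSO (SD, n = 3 each), a log2 change of 0.78 ± 0.08 (SE), or 1.72-fold (edgeR adjusted p = 0.00922, and adjusted p = 4.05e-05 with the day block).

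The secreted matricellular proteins CYR61 and CTGF are the most widely used readouts of YAP and TAZ. Ctgf, on chromosome 10 at 24595442 to 24598683 (plus strand), had 28.0, 28.4 and 19.1 CPM with INT-777, against 20.6, 20.6 and 13.4 CPM with DMSO, on days 1, 2 and 3. The INT-777 library was above the DMSO library of its own day on 3 of 3 days, but the groups overlapped, because both day 3 libraries were low. The log2 ratios within days lay close together, at 0.44, 0.46 and 0.52. Without the block the log2 change of Ctgf was 0.47 ± 0.22 (SE), with a 95% interval of −0.08 to 1.01, and did not pass (edgeR adjusted p = 0.364). With the day block Ctgf was called higher, at 0.47 ± 0.06 (edgeR adjusted p = 6.91e-05).

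Exons of Ctgf share 826 of their 2861 bases with Gm15270, annotated on the opposite strand, and read pairs from the shared part are missing from the counts that ignore strand. Gm15270 itself had 12, 4 and 10 pairs with INT-777 and 3, 8 and 3 with DMSO. With the counts of both strand columns summed, which keep the shared pairs, Ctgf had 2286, 2309 and 1569 pairs with INT-777 and 1596, 1618 and 1071 with DMSO, in place of 1320, 1353 and 894 with INT-777 and 950, 948 and 620 with DMSO. The log2 change was 0.48 ± 0.22 from the summed counts (edgeR adjusted p = 0.356, and adjusted p = 9.01e-06 with the day block). Yap1 shares 116 of 9257 exon bases with Gm20416 and Tead2 27 of 4788 with Cd37.

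Cyr61, on chromosome 3 at 145646976 to 145649981 (minus strand), had 22.6, 20.8 and 19.4 CPM with INT-777, against 22.7, 23.7 and 15.9 CPM with DMSO. The groups overlapped and the direction differed by day, with log2 ratios of −0.0030, −0.19 and 0.29 on days 1, 2 and 3. The fitted log2 change was 0.01 ± 0.15, with a 95% interval of −0.34 to 0.37 (edgeR adjusted p = 0.974, and adjusted p = 0.851 with the day block). An increase of Cyr61 of the size fitted for F3, 0.78, lay outside that interval, while one of the size fitted for Ctgf, 0.47, lay outside it without the block and also outside the narrower blocked interval of −0.14 to 0.20.

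Ankrd1, a nuclear ankyrin-repeat protein gene best known from heart and muscle, was barely detected. The gene is on chromosome 19 at 36111961 to 36120099 (minus strand) and gave 12, 6 and 9 read pairs in the INT-777 libraries, against 10, 5 and 3 in the DMSO libraries, or 27 pairs with INT-777 and 18 with DMSO. The gene did not pass the filter, and in a fit of all 29061 genes with any count its log2 change was 0.53 ± 0.59, with a 95% interval of −0.69 to 1.76 (edgeR adjusted p = 0.727). At this depth neither a 2-fold rise nor no change lay outside the interval.

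Stromal and vessel cells also express Cyr61, Ctgf and Ankrd1. The summed level of 16 stromal and endothelial markers was 3.03, 3.11 and 5.78 CPM in the INT-777 libraries of days 1, 2 and 3, against 3.26, 3.73 and 6.34 CPM in the DMSO libraries. Pecam1, listed here as an endothelial marker, made up 2.70 CPM of the sum with INT-777 and 2.76 CPM with DMSO on day 3. The other endothelial markers were lower on that day. With INT-777 and DMSO, Cdh5 had 0 and 0, Kdr 0.021 and 0.022, Vwf 0.214 and 0.259, and Plvap 0.663 and 0.604 CPM. Which cells gave the Pecam1 reads was not tested. The part of stromal and vessel cells in the Ctgf values was not tested. None of the 16 markers was at 0 in all libraries and 7 passed the low-count filter; the collagen gene Col1a1 averaged 0.467 ± 0.178 CPM with INT-777 and 0.722 ± 0.181 CPM with DMSO. The summed level of 15 immune markers was 0.742, 1.01 and 5.93 CPM with INT-777 and 0.630, 0.890 and 7.09 CPM with DMSO; none was at 0 in all libraries. In bulk libraries fewer cells of a type and less RNA per cell cannot be told apart.

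**Figure D2:**
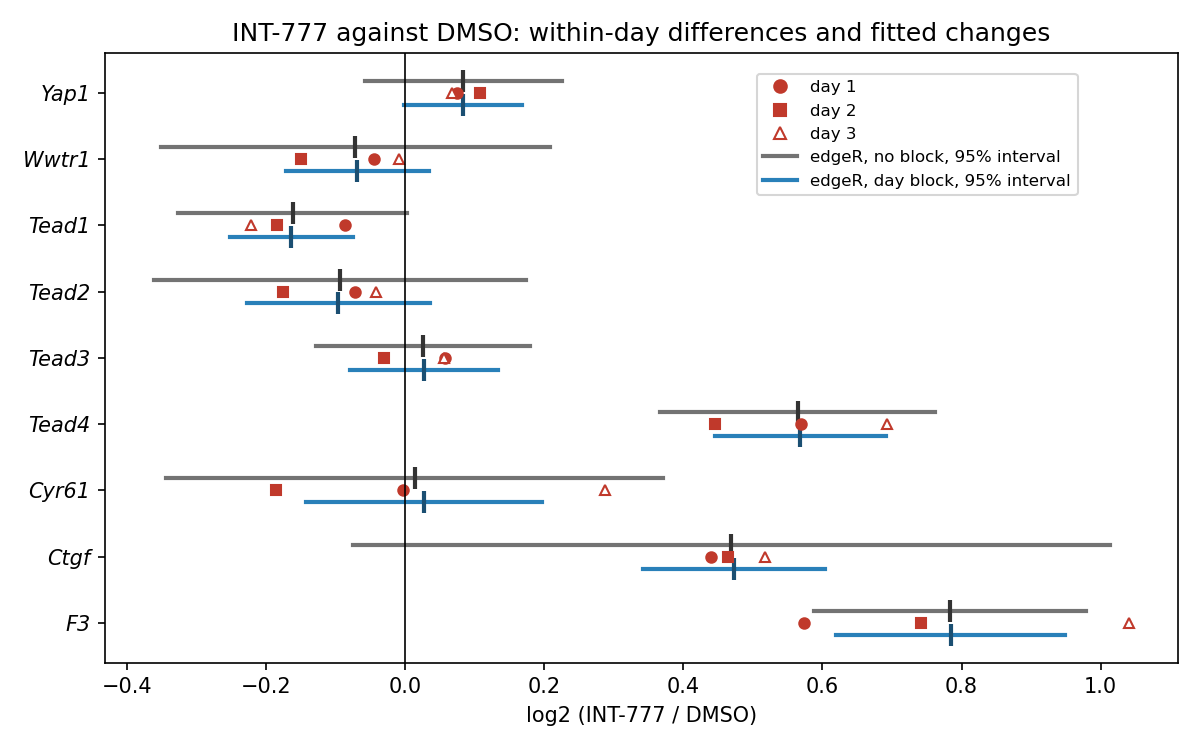
Log2 ratio of INT-777 over DMSO for the 9 tested genes: red symbols are the differences within days 1, 2 and 3, and ticks with lines are the edgeR estimates with 95% intervals, without the block (grey) and with it (blue). F3 and Tead4 lie above 0 on each day and in both fits, the grey interval of Ctgf holds 0 and its blue one does not, and the days of Cyr61 fall on both sides of 0.

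The coactivator genes themselves did not pass in either fit. Yap1, on chromosome 9 at 7931999 to 8004596 (minus strand), had 128, 129 and 116 CPM in the INT-777 libraries of days 1, 2 and 3, against 122, 119 and 111 CPM in the DMSO libraries. It was higher with INT-777 on each day by a small margin, with overlapping groups and a log2 change of 0.08 ± 0.06 (95% interval −0.06 to 0.22; edgeR adjusted p = 0.537, and adjusted p = 0.163 with the day block). Wwtr1, on chromosome 3 at 57455649 to 57575910 (minus strand), had 63.2, 59.9 and 51.1 CPM with INT-777, against 65.2, 66.4 and 51.4 CPM with DMSO. Its groups overlapped as well, and the log2 change was −0.07 ± 0.12 (95% interval −0.35 to 0.21; edgeR adjusted p = 0.81, and adjusted p = 0.355 with the day block). The intervals of both genes leave out changes as large as the 0.47 fitted for Ctgf.

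Among the 4 TEAD genes, which encode factors with a shared DNA-binding domain, Tead4 was called higher. Tead4, on chromosome 6 at 128224288 to 128300823 (minus strand), had 46.3, 43.3 and 42.3 CPM in the INT-777 libraries of days 1, 2 and 3, against 31.2, 31.8 and 26.2 CPM in the DMSO libraries. Every INT-777 library was above every DMSO library, with log2 ratios of 0.57, 0.45 and 0.69 within the days. The mean was 44.0 ± 2.09 CPM with INT-777 and 29.7 ± 3.1 CPM with DMSO (SD, n = 3 each), a log2 change of 0.56 ± 0.08 or 1.48-fold (edgeR adjusted p = 0.0263, and adjusted p = 6.17e-06 with the day block).

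Tead1, on chromosome 7 at 112679318 to 112906807 (plus strand), had 151.0, 145 and 129 CPM with INT-777, against 160.3, 165 and 150.4 CPM with DMSO. It was lower with INT-777 on each day, with log2 ratios of −0.09, −0.18 and −0.22, although the day 1 INT-777 library lay just above the day 3 DMSO library, so that the groups overlapped. Without the block the log2 change of Tead1 was −0.16 ± 0.07, with a 95% interval of −0.33 to 0.0028, and did not pass (edgeR adjusted p = 0.31). With the day block Tead1 was called lower, with the same log2 change of −0.16 and an SE of 0.04 (edgeR adjusted p = 0.0106).

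Tead2 and Tead3 did not pass in either fit. Tead2, on chromosome 7 at 45215753 to 45233644 (plus strand), had 19.4, 19.8 and 24.5 CPM with INT-777, against 20.4, 22.3 and 25.2 CPM with DMSO, with −0.09 ± 0.12 as its log2 change (edgeR adjusted p = 0.731, and adjusted p = 0.311 with the day block). Tead3, on chromosome 17 at 28331671 to 28350817 (minus strand), had 45.6, 46.7 and 43.3 CPM with INT-777, against 43.8, 47.7 and 41.7 CPM with DMSO, with 0.03 ± 0.07 as its log2 change (edgeR adjusted p = 0.879, and adjusted p = 0.754 with the day block). Both pairs of groups overlapped. The 95% intervals, −0.36 to 0.17 for Tead2 and −0.13 to 0.18 for Tead3, lie below the fitted change of Tead4.

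With Tead4 called higher, and Tead1 called lower with the day block only, the make-up of the TEAD transcripts differed between the groups. Shares of 1 sum depend on each other, so a rise of Tead4 by itself lowers the share of Tead1. Per length of exon, Tead4 made up 36.9, 35.6 and 35.8% of the summed TEAD level in the INT-777 libraries of days 1, 2 and 3, against 27.7, 26.99 and 24.4% in the DMSO libraries. The share of Tead1 was 31.9, 31.6 and 28.9% with INT-777, against 37.8, 37.1 and 37.1% with DMSO. Tead4 thus had the largest share of the 4 in each INT-777 library and Tead1 in each DMSO library. That order rests on the length used: with the longest annotated transcript in place of all exons, Tead1 had the larger share of the pair in the INT-777 libraries of days 1 and 2, at 30.8 and 30.3%, and Tead4 had 30.6, 29.3 and 29.6% with INT-777 against 22.6, 21.9 and 19.7% with DMSO. The summed TEAD level was 34.8, 33.8 and 32.8 CPM per kb with INT-777, against 31.3, 32.8 and 29.8 CPM per kb with DMSO.

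**Figure D3:**
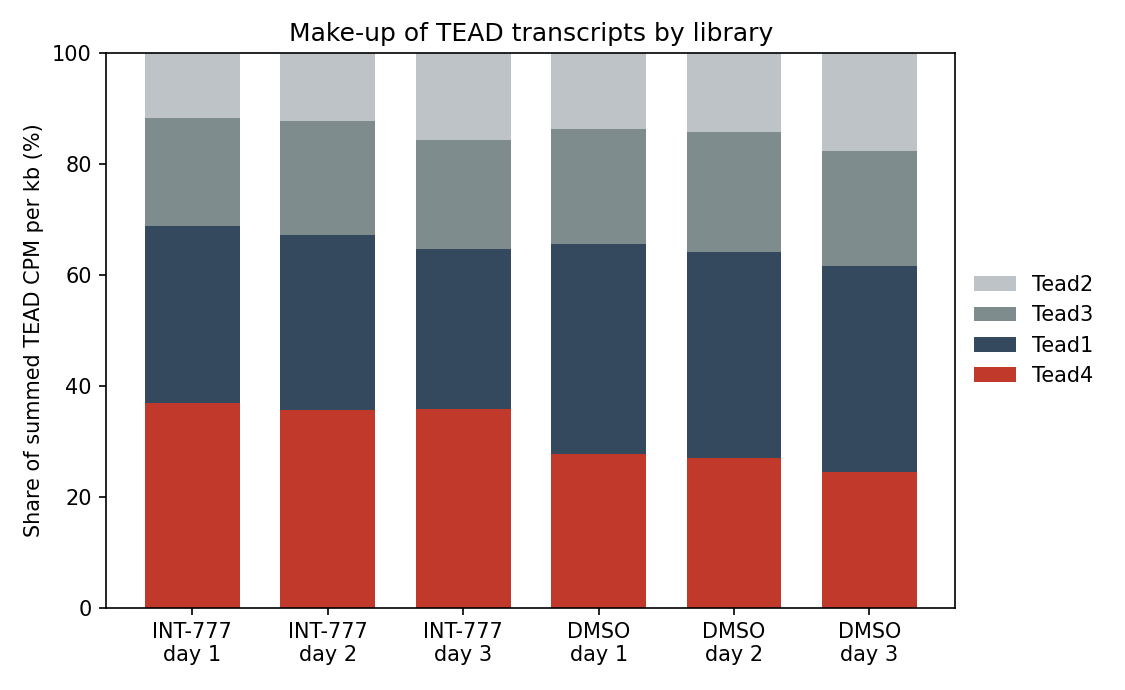
Share of each TEAD gene in the summed TEAD level (CPM per kb of exon) in the 3 INT-777 and the 3 DMSO libraries; each bar adds to the whole of 1 library. The red share of Tead4 lies between 35.6 and 36.9% in the INT-777 libraries and between 24.4 and 27.7% in the DMSO libraries.

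Compared per length of exon, F3 had the highest level of the 10 genes, 30.0 ± 2.11 CPM per kb with INT-777 and 17.4 ± 1.64 CPM per kb with DMSO. In the DMSO group Wwtr1, Yap1, Tead1 and Cyr61 followed at mean levels of 12.8, 12.7, 11.7 and 10.3 CPM per kb, then Tead4 at 8.27, Tead3 at 6.61, Ctgf at 6.36 and Tead2 at 4.73, with Ankrd1 last at 0.0451 CPM per kb. Neighbours in that order overlapped in their ranges over the 3 libraries, apart from F3 and Wwtr1, Tead4 and Tead3, and Tead2 and Ankrd1. In the INT-777 group Tead4 came next after F3 and Yap1, at 12.2 CPM per kb, with a range that overlapped those of Yap1 and Wwtr1. Of the 10 places in the DMSO order, 4 were kept when the longest transcript was used as the length, so the order is not firm: in DMSO libraries Tead3, at 12.9 CPM per kb, then stood above Tead4, at 9.67 CPM per kb, again without overlap. The level of Ctgf is too low, since its length holds the 826 shared bases whose pairs are missing from its counts. Its DMSO libraries had 950, 948 and 620 pairs, against 1596, 1618 and 1071 in the summed strand columns. Yap1 had 5608, 5499 and 5155 pairs with DMSO, against 6429, 6216 and 5852 summed. The order was not redone with the summed counts.

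**Figure D4:**
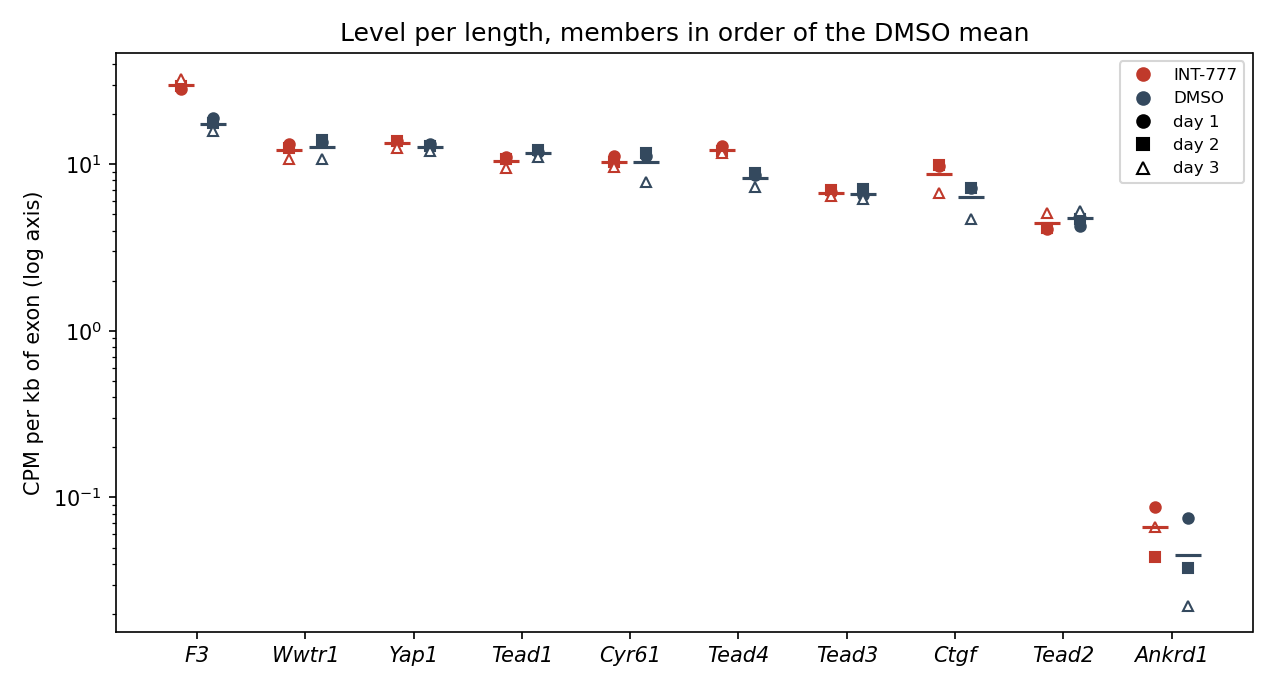
Level per length of exon (CPM per kb, log axis) of the 10 genes in order of the DMSO mean, with INT-777 left of DMSO for each gene; symbols are libraries and lines are means. F3 is highest in both groups, Ankrd1 lies far below the others, and the remaining 8 genes have group means between 4.44 and 13.4 CPM per kb.

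The genes also varied between the days. The day terms passed for 4 of the 9 tested genes, against 20.5% of all tested genes (edgeR F-test of the day terms beside treatment, adjusted p under 0.05). Ctgf, Cyr61 and Wwtr1 were lower on day 3 than on day 1, by log2 changes of −0.59, −0.36 and −0.32 (edgeR adjusted p = 3.95e-05, 0.024 and 0.00129), and Tead2 was higher, by 0.32 (edgeR adjusted p = 0.0133). On day 2 these 4 differed from day 1 by log2 changes of −0.03 to 0.08. F3 did not pass (edgeR adjusted p = 0.976), and its log2 change between days 3 and 1 was −0.03. The goblet markers and RNA integrity given above moved with the same day, and their part in these differences was not tested.

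Most core Hippo genes had small log2 changes. Of 14 genes for the kinases and their scaffolds, the upstream kinases MST1 and MST2 (Stk4, Stk3), LATS1 and LATS2, and the scaffold merlin (Nf2) among them, none passed without the block (edgeR; 1 at an unadjusted p under 0.05, and 1 lower in DESeq2), and 7 had positive and 7 negative log2 changes with a median of 0.0031. The range excluding Stk38l ran from −0.11 for Map4k4 to 0.15 for Lats2, itself a YAP target. Stk38l, an NDR kinase related to LATS, had 62.6 ± 3.74 CPM with INT-777 and 80.7 ± 7.98 CPM with DMSO, or −0.37 ± 0.08 on the log2 scale (edgeR adjusted p = 0.0883), and was the 1 gene of the list called lower with the day block (edgeR adjusted p = 4.55e-05). The blocked fit called 10.3% of all genes lower.

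Junction and polarity genes that act on the pathway, and the partners of TEAD factors, held no call without the block among 18 and 7 tested (edgeR). At an unadjusted p under 0.05 there were 3 in each list, and DESeq2 called 0 and 2. With the block, the junction list had 4 higher and 3 lower genes, against 11.1% of all genes higher and 10.3% lower. Rassf1, a scaffold gene that acts on MST kinases, and Ajuba, whose LIM protein restrains LATS, were among the higher ones at blocked log2 changes of 0.21 ± 0.07 and 0.33 ± 0.04, and the tyrosine phosphatase gene Ptpn14, whose product binds YAP, among the lower ones at −0.42 ± 0.08. The TEAD partners had 3 higher and 1 lower gene with the block, against the same shares of all genes. Vgll3, of the Vestigial-like family that competes with YAP for TEAD, was higher by 0.38 ± 0.09 on the log2 scale (edgeR adjusted p = 0.116 without the block, and adjusted p = 0.0095 with the day block), and Vgll4 was the lower one, at a blocked log2 change of −0.20 ± 0.06. The transcription factor gene Runx2 was called higher with the block at a low level, 0.826 ± 0.145 CPM with INT-777 and 0.231 ± 0.163 CPM with DMSO (edgeR adjusted p = 0.132 without it, and adjusted p = 0.00208 with the day block).

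A wider signature of 22 YAP and TAZ targets, of which Ctgf, Cyr61, Ankrd1 and F3 are part, had 20 tested genes. Without the block edgeR called 1 gene, F3, with 6 at an unadjusted p under 0.05, and DESeq2 called 2 higher and 1 lower. With the block 4 were higher (F3, Ctgf, Myof and Asap1) and 3 lower (Gadd45b, Ptpn14 and Arhgef17), 7 of 20 against 21.3% of all genes. The list median was 0.02, with 12 positive and 8 negative log2 changes. Myof, a membrane-repair protein gene, averaged 116 ± 8.89 CPM with INT-777 and 92.1 ± 12.4 CPM with DMSO (log2 0.34 ± 0.10 without the block), and the stress gene Gadd45b 16.0 ± 2.08 CPM with INT-777 and 22.9 ± 3.53 CPM with DMSO (log2 −0.51 ± 0.13 without the block). Amotl2, another widely used target, differed by 0.0077 ± 0.08 on the log2 scale (edgeR adjusted p = 0.973), which did not pass.

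**Figure D5:**
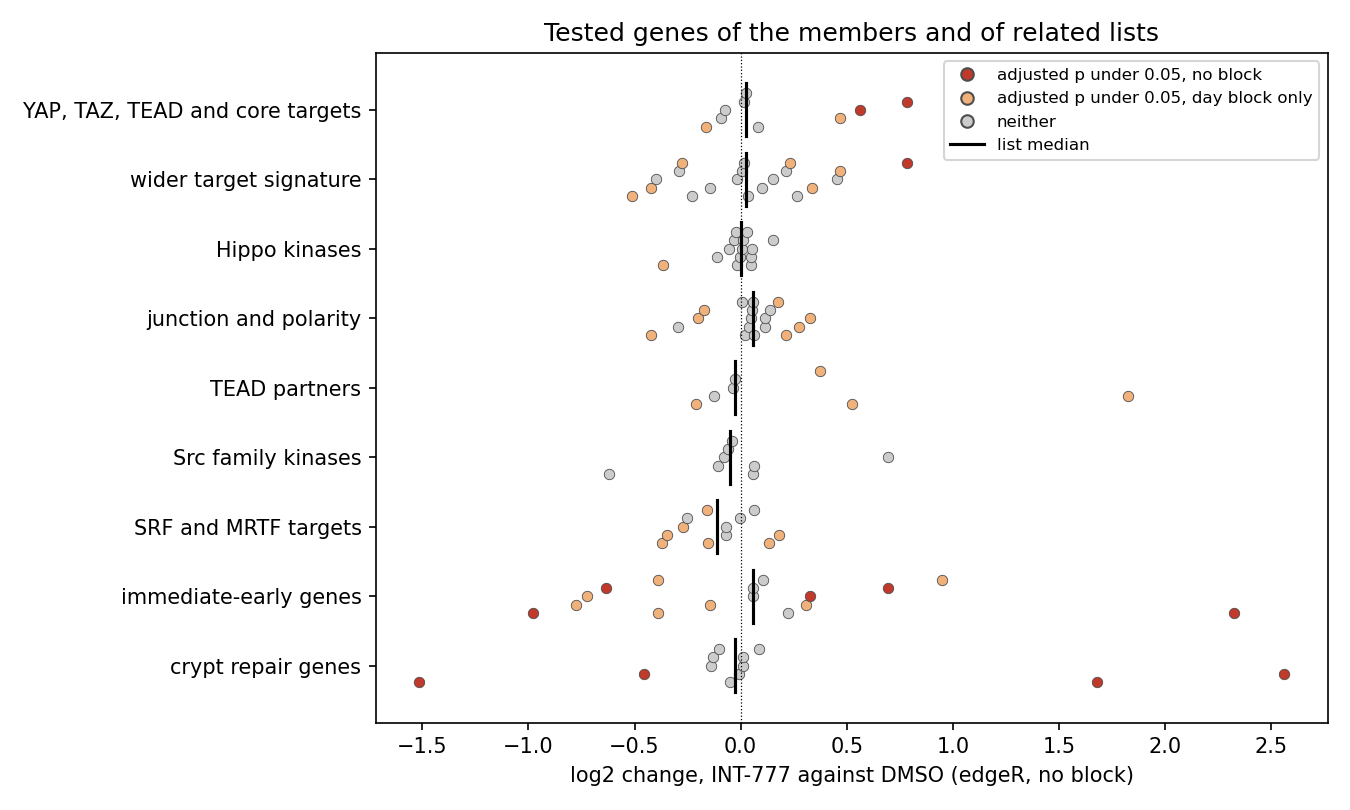
Log2 change of INT-777 against DMSO (edgeR without the block) for the tested genes of the members and of 8 related lists; each point is a gene, red where it passed without the block, orange where it passed with the day block only, grey otherwise, and black lines are list medians. The list medians lie between −0.11 and 0.06, and the red points fall on both sides of 0 among immediate-early and crypt repair genes.

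Src family kinases, placed upstream of YAP in the proposed route, were listed with Csk, the kinase that inhibits them, and none passed in either fit: 0 of 8 were called by edgeR without the block and 0 with it, 0 had an unadjusted p under 0.05 without the block, and DESeq2 called 0. Src had 89.5 ± 3.03 CPM with INT-777 and 92.2 ± 4.18 CPM with DMSO (log2 −0.04 ± 0.05, edgeR adjusted p = 0.742). Lyn and Fgr, the 2 of smallest p, had log2 changes of −0.11 ± 0.07 and −0.62 ± 0.28, and Fgr had 0.318 CPM with INT-777 and 0.491 CPM with DMSO. Genes that respond to SRF and its coactivators MRTF, which share some targets with YAP, held no call among 12 without the block (edgeR; 4 at an unadjusted p under 0.05, and 2 in DESeq2, both lower) and 2 higher and 5 lower with it, with a median of −0.11. Mrtfb, a coactivator gene, differed by −0.27 ± 0.06 (edgeR adjusted p = 0.0938), and Fhl2, a LIM protein gene, by 0.18 ± 0.06 (edgeR adjusted p = 0.181). Of all genes, edgeR called 1.45% in either direction without the block and 21.3% with it.

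Among 16 tested immediate-early genes, 3 rose (Egr1, Fos and Junb) and 2 fell (Atf3 and Jun), all of them genes of transcription factors, and Fos, Junb, Jun and Atf3 encode proteins of the AP-1 group or its relatives. The log2 changes were 2.32 ± 0.15 for Egr1, 0.33 ± 0.06 for Junb and −0.98 ± 0.15 for Atf3. Fos had 19.5 ± 0.393 CPM with INT-777 and 12.0 ± 0.785 CPM with DMSO (log2 0.70 ± 0.07, edgeR adjusted p = 0.00919), and Jun 38.5 ± 1.89 CPM with INT-777 and 59.7 ± 6.05 CPM with DMSO (log2 −0.63 ± 0.08, edgeR adjusted p = 0.0169). The blocked fit called 5 of the list higher and 7 lower, against 11.1 and 10.3% of all genes. Without the block 0.688% of all genes were called higher and 0.763% lower. Of 12 genes linked to crypt repair, Msln and Il1rn rose and Cxcl16 and Edn1 fell in both fits, with a list median of −0.03. The log2 changes were 2.56 ± 0.13 for Msln (mesothelin), 1.68 ± 0.15 for Il1rn (interleukin 1 receptor antagonist) and −0.46 ± 0.06 for Cxcl16, a chemokine gene. Edn1, the endothelin 1 gene, had 6.36 ± 0.188 CPM with INT-777 and 18.2 ± 3.27 CPM with DMSO (log2 −1.51 ± 0.14, edgeR adjusted p = 0.00584).

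The genes whose pattern over the 6 libraries was most like that of F3, by the root mean square difference of centred log2 CPM among 11087 protein-coding genes, were Flnc, Pparg and Fos, at 0.0530, 0.0578 and 0.0653. Flnc encodes filamin C, an actin cross-linker, and had 18.1, 18.5 and 22.7 CPM with INT-777 on days 1, 2 and 3, against 12.3, 11.9 and 10.6 CPM with DMSO. Flnc was chosen by this likeness, so that, like F3, it was highest in the INT-777 and lowest in the DMSO library of day 3 is no separate finding. Among the genes nearest to Tead4 were Socs3 and Klf10, at 0.0439 and 0.0518. Klf10, a Krüppel-like factor gene, had 58.7, 58.1 and 56.4 CPM with INT-777, against 43.3, 43.2 and 37.3 CPM with DMSO.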

How the data were processed

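The members and gene lists were chosen with earlier results of these data known, and F3 and Tead4 were already known to change. Per the submitters' processing notes, FastQC, STAR 2.73a and edgeR 3.24.3 were used with the builds GRCm38 and mm10; no source used here names the annotation or options. The deposited tables give unnormalised counts, in read pairs assigned to each gene. The column that ignores strand was used, since the strand columns held nearly equal sums (50.1 to 50.6% in the first); 54809 of 54838 IDs matched GENCODE M21. Lines that are not genes were left out (74.5 to 75.6% of pairs were assigned).

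Counts were filtered (filterByExpr), TMM-scaled and tested in R 4.3.3 with edgeR 4.0.16 (robust quasi-likelihood, two-sided), with limma 3.58.1 as its dependency and DESeq2 1.42.0 as an alternative; the tests were tried on simulated counts. Each SE was taken as |log2 change| divided by √F. Tables and figures were made in Python 3.11.15. Named besides the members are list genes called without the block, the 2 of smallest p per list, and the 3 genes nearest in pattern to each called member, of which 1 is not reported here, leaving out Cd52, Itgam and Pdgfrb, marker genes with no call; Ajuba, Amotl2, Arhgef17, Ascl2, Asap1, Lats2, Lgr5, Myof, Olfm4, Pecam1, Src and Vgll4 were chosen after their values were seen. Same-numbered libraries share a sort day per the labels, which pairs them; their deviations from the group means correlated at 0.612, 0.681 and 0.820 (INT-777 replicate 2 slightly more with DMSO replicate 1, at 0.686). Each day used its own pool of mice, shared by both groups. The p-values without the block treat the paired libraries as independent and count the spread between the 3 pools as error. Those with the day block measure how far the difference between INT-777 and DMSO varies over the 3 pools.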

Additional observations from a re-analysis of the deposited data

How the results depend on the processing

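Neither call without the block held in every fit that left out 1 library. The number of members called higher then ranged from 0 to 2. It was 0 without INT-777 replicate 1, INT-777 replicate 2, DMSO replicate 1 or DMSO replicate 2. Those fits called 8, 9, 14 and 19 of all genes, in that order. The number of members called higher was also 0 without both libraries of day 1 or of day 2. With 1 library left out the log2 change of F3 lay between 0.70 and 0.85 (edgeR adjusted p = 0.00773 to 0.0813) and that of Tead4 between 0.47 and 0.61 (edgeR adjusted p = 0.0177 to 0.171); without day 1 or day 2 their adjusted p were 0.354 and 0.275 (F3) and 0.511 and 0.394 (Tead4). Members called lower were 0 in the main fit (edgeR, 0 also at an unadjusted p under 0.05). Without the block, 1 member was lower at an unadjusted p under 0.05 (edgeR) in each of several other fits. These were without the low-count filter, without DMSO replicate 3, without INT-777 replicate 1 and with both strand columns summed. In that order, 2866 of 29061, 2331 of 16241, 1840 of 16468 and 2813 of 17537 genes were below 0.05 before adjustment, in either direction. Without day 3 there were 3 lower members, and 7 in either direction, against 5700 of 16002 genes in either direction. Tead1 was the 1 member called lower with the replicate block, and with the block and both strand columns summed. The same held with the block without day 1 or day 3, and without the block and day 3. With the block F3, Tead4 and Ctgf were called whichever day was left out, and Tead1 was not called without day 2 (edgeR adjusted p = 0.112).

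Over all genes the count was 232, and with 1 library left out it ranged from 8 to 273. The count was 3415 with the replicate block, 798 with DESeq2 and 435 without the low-count filter. Without both libraries of day 1, 2 or 3 it was 0 (1189 at an unadjusted p under 0.05 in edgeR, no other tool run), 3 and 4292. Alternatives chosen after seeing the data were the block without day 1, 2 or 3 (3247, 1940 and 3853) and summed strand columns, with the block (3608) and without it (249). The direction of Cyr61 turned without both libraries of day 3 (log2 −0.10, also −0.10 with the block), and its log2 change ranged from −0.16 to 0.11 with 1 library left out. With 1 library left out, the log2 change of Tead3 ranged from −0.028 to 0.077 (−0.0048 without INT-777 replicate 2), and that of Wwtr1 from −0.19 to 0.0048. The causes were not tested. The block changed no call among the 9 other than those of Ctgf and Tead1. Of 10 places in the order of levels per length, 4 were kept with the longest transcript. Depth limits Ankrd1.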
